A study of Mus musculus with 4 samples.

Results

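The genes of the Cdkn2a locus and further inhibitors of cyclin-dependent kinases (CDKs) were followed across 4 arrays of mouse embryonic fibroblasts (MEFs). The 8 genes were Cdkn2a, Cdkn2b, Cdkn2c, Cdkn2d, Cdkn1b, Cdkn3, Mtap and Dmrta1, out of 31806 gene names on the array, and every probe that carried one of these names was kept, 11 of 39397 probes. The set was chosen by earlier results of these same arrays, in which Cdkn2a and Cdkn2b already stood out, so the values below are a description and carry no test. Total RNA of C57BL/6J MEFs in logarithmic growth, prepared from mid-gestation embryos, was labelled with Cy3 and hybridized to Agilent arrays of the whole mouse genome in a single color, 1 array per group and all on 1 slide. The genotypes in the labels are CycG2-/- (G2KO), CycG2+/+ (the WT of the G2KO comparison), CycG1-/-CycG2-/- (DKO) and CycG1+/+CycG2+/+ (the WT of the DKO comparison). Below they are the G2KO-labelled, WT-labelled, DKO and DKO-WT arrays. CycG1 and CycG2 are the proteins of Ccng1 and Ccng2, cyclins that bind a phosphatase subunit, and Ccng1 is a target gene of p53. In the DKO mice all protein-coding exons of Ccng1 were replaced by a neomycin cassette. Each group is thus a single MEF preparation on a single array, with no replicate, and the WT groups, both wild type, were kept apart as labelled, so that genotype and preparation cannot be told apart, and having so few arrays limits how precise any ratio can be.

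Cdkn2a and Cdkn2b lie side by side and encode INK4 proteins, which bind Cdk4 and Cdk6 and keep them from pairing with D-type cyclins, so that the retinoblastoma protein stays active. Through a second, more distant first exon Cdkn2a also encodes p19Arf, which binds Mdm2 and thereby stabilizes p53, the inducer of the CIP/KIP inhibitor Cdkn1a. In cultured MEFs the locus is known to be induced with passage as part of the senescence response, and its loss or silencing is a common route to immortal lines. Cdkn2c and Cdkn2d encode the remaining INK4 proteins, Cdkn1b the CIP/KIP inhibitor p27, and Cdkn3 a phosphatase that acts on CDKs and is itself made by dividing cells. Mtap, an enzyme of methionine salvage, and Dmrta1, a DM-domain transcription factor, flank Cdkn2a and Cdkn2b.

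The Cdkn2a and Cdkn2b probes are shown because the largest ratios below were read from them. Their first bases, 5′ to 3′ in the sense of the mRNA with no part in capitals, were taken from the array files, with positions on mm9, minus strand.
Cdkn2a probe 1 (chr4:88920435-88920464): ggcatgagaaactgagcgaaggcggccgcg
Cdkn2a probe 2 (chr4:88920573-88920602): cttctagcgatgctagcgtgtctagcatgt
Cdkn2b probe 1 (chr4:88952306-88952335): ccagtgatgaattgtagtggtagcaggtta
Cdkn2b probe 2 (chr4:88952750-88952779): ttgagcctcaccttgaagccaaggggatca
Each probe is 60 bases long. Both Cdkn2a probes list the same 2 RefSeq transcripts, NM_009877 and NM_001040654, so the mRNAs for p19Arf and p16Ink4a were not told apart by either probe. Cdkn2b has 1 transcript, NM_007670.

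The 250 bases before the starts of Cdkn2a and Cdkn2b, genes whose signals were both lowest on the WT-labelled array, and of Cdkn3, which is read below beside proliferation genes, were taken from RefSeq (GRCm38.p6). All 8 genes were found there, with 10 starts. Capitals mark every match on either strand. The GC box was searched as GGGCGG. The CCAAT box was searched by those letters, and the TATA box as TATAAA. The cell cycle genes homology region was searched as TTTGAA. For the E2F site a loose form, TTTNNCGC, was used.
Cdkn2a distal start, for p19Arf (chr4:89294620-89294869, minus strand): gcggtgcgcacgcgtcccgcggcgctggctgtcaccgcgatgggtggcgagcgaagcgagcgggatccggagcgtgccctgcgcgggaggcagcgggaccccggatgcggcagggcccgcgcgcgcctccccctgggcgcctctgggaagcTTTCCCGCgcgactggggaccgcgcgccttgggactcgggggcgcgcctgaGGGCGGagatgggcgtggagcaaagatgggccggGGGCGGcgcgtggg
Cdkn2a proximal start, for p16Ink4a (chr4:89282193-89282442, minus strand): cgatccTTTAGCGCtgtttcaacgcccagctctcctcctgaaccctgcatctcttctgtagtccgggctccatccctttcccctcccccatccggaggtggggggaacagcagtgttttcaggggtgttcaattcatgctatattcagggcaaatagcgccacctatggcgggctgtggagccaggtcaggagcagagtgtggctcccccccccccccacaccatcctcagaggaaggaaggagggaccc
Cdkn2b (chr4:89311033-89311282, minus strand): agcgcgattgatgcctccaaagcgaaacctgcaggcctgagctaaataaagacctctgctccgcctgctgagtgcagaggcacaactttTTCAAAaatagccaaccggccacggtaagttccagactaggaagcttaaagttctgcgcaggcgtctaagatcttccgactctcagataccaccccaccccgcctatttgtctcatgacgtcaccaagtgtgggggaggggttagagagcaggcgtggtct
Cdkn3 (chr14:46760291-46760540, plus strand): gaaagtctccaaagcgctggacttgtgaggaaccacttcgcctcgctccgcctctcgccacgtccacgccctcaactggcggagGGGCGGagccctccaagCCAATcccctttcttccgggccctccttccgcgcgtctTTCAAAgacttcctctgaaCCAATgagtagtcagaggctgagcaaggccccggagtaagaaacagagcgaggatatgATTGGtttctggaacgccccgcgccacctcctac
No 2 matches overlapped in these windows. The E2F letters were present before both Cdkn2a starts and before none of the other 8 starts, and 4.28% of all 32851 promoters in the table held them. The distal start had 40 CpG dinucleotides and 2 GC boxes, the proximal start 7 CpG and no GC box, and Cdkn2b 12 CpG, against a median of 6 CpG over all promoters. The promoter of Cdkn3 held 3 CCAAT boxes and 1 cell cycle genes homology region, letters that 33.8% and 16.0% of all promoters held at least once, and Cdkn2b held the homology region as well. GC boxes were present in 32.7% of all promoters and the TATA letters, which none of the 10 starts had, in 12.4%. These matches describe letters in a window and were not set against the array values.

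Between 25600 and 28450 of 39397 probes per array were well above background, the flag that the extraction software sets, and no spot was saturated. A level is the processed signal of a probe divided by the 75th percentile of its array, and levels are compared between arrays for 1 probe, not between probes. Of the genes targeted in the mice, Ccng1 had a level of 1.66 on the DKO-WT array and was dim (not well above background) in DKO MEFs, at least 228-fold lower. Its level was 1.98 on the G2KO-labelled array and 9.45 on the WT-labelled array. The Ccng2 probe was between 0.0619 and 0.104 on all 4 arrays and did not separate knockout from WT. Directions of the G2KO comparison therefore rest on its labels. They are opposite to the signs in the study's own list for that comparison, Cdkn2b included, which is why its arrays are named by label only. By the study's methods that comparison was dye-swapped, so its list may come from arrays other than the single-color ones read here. The study also describes its G2KO MEFs as female in origin, while the array on which the Y-linked gene Eif2s3y was dim is the WT-labelled one. If the labels of that pair were exchanged, every G2KO ratio below would turn its sign, and the WT arrays compared would be the G2KO-labelled and the DKO-WT array. Ccng1 was dim on the DKO array alone.

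The label of fibroblasts was set against marker genes. All 14 fibroblast markers were well above background on 3 arrays and 12 on the WT-labelled array, where Pdgfra and Lum were not; their summed level was 534 on the G2KO-labelled array, 407 on the WT-labelled array, 416 on the DKO array and 619 on its WT. Of the 14, 6 were at least 4-fold higher and 0 lower in the G2KO-labelled pair, where 3.58% and 1.92% of all probes were. In DKO MEFs 1 was higher and 5 were lower (3.93% and 3.99% of all probes), and 7 were higher and 0 lower on the DKO-WT array than on the WT-labelled array (4.57% and 2.65%). Mesothelial markers summed to 149 on the DKO array, with all 10 well above background, and to between 0.64 and 1.62 elsewhere, with 3 to 5 of 10. Neural progenitor markers summed to 31.2 on the WT-labelled array, mostly Nes at 28.0 and Sox2 at 2.37, and to between 1.94 and 2.61 elsewhere, where Sox2 was not well above background. Endothelial markers summed to between 3.09 and 4.44, with 2 or 3 of 6 well above background and Tie1 and Emcn on none. Macrophage markers summed to between 0.6 and 0.823, and smooth muscle markers to 42.6 on the DKO array against 215 to 362 elsewhere, with 4 or 5 of 6 well above background on every array. The part of these cell types in the values that follow was not tested.

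**Figure D1:**
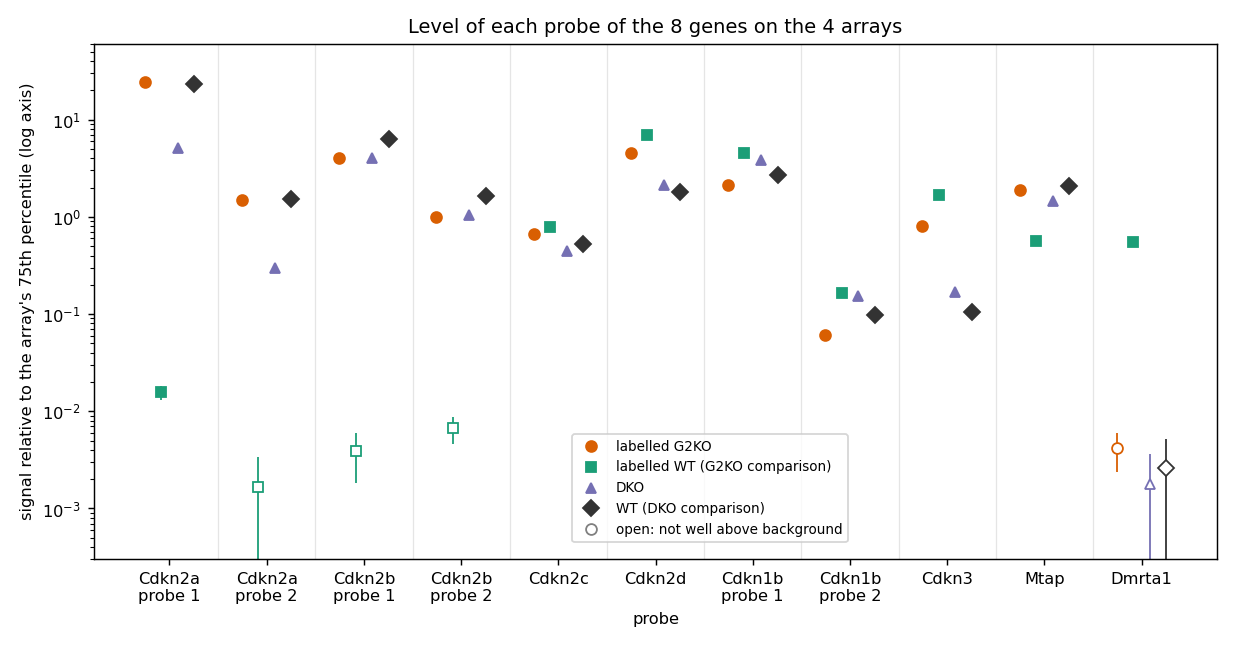
Level of each of the 11 probes on the 4 arrays, as signal over the array's 75th percentile on a log axis, with the extraction software's error of the spot as bars (bars that leave the axis reach nearly to 0) and open symbols where the probe was not well above background. On the WT-labelled array, Cdkn2a and Cdkn2b lay between 0.00168 and 0.0157 while Dmrta1 was at 0.555, and on each other array Cdkn2a and Cdkn2b were well above background and Dmrta1 was not.

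Cdkn2a had the largest ratio or limit of all probes in the G2KO-labelled pair. Its probe 1, on chromosome 4 of mm9 at 88920405 to 88920464, had a level of 24.3 ± 2.43 (the software's error of the spot, here and below) on the G2KO-labelled array. It was 0.0157 ± 0.00263 on the WT-labelled array, still well above background, 5.09 ± 0.509 on the DKO array and 23.3 ± 2.33 on its WT. The WT-labelled array was thus far below the others, the G2KO-labelled array and the DKO-WT array overlapped within the error of the spot, and the DKO array lay between. Probe 2, at 88920543 to 88920602, gave 1.49 on the G2KO-labelled array, 0.30 on the DKO array and 1.51 on its WT, but on the WT-labelled array it was dim. Less mRNA per cell and fewer cells with the mRNA cannot be told apart in such bulk RNA.

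In ratios, Cdkn2a probe 1 was 1550-fold higher on the G2KO-labelled array than on the WT-labelled array, a log2 ratio of 10.60. This was the largest in size among 28273 probes, with limits ranked at their bounds. A probe that was dim on 1 of the arrays may therefore differ more. With normexp background correction the log2 ratio of probe 1 was 8.65. Its signal of 24.9 on the WT-labelled array was near the dimmest still well above background there (11.362). Probe 2 was at least 207-fold higher, a log2 ratio of at least 7.70, or of at least 5.24 with normexp background correction. In DKO MEFs the log2 ratios were -2.19 and -2.33 against the WT of that comparison, or 4.57-fold and 5.04-fold lower. By the labels this is the opposite direction, but with the labels of the G2KO pair exchanged its log2 ratio would be -10.60, and Cdkn2a would be lower in both knockouts. In DKO MEFs these 2 probes disagreed by 0.14 on the log2 scale, while 4044 genes with 2 or more probes had a median disagreement of 0.18. The WT arrays differed from each other as strongly as the G2KO pair did. Probe 1 was 1483-fold higher (log2 ratio 10.53, or 8.595 with normexp) on the DKO-WT array, and probe 2 at least 211-fold higher. The 1483-fold ratio of probe 1 was the largest of 27466 probes, again with limits at their bounds.

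The direction of the DKO value depended on which WT array it was set against. Against the WT-labelled array, Cdkn2a was 324-fold higher in DKO MEFs by probe 1 (log2 ratio 8.34) and at least 41.8-fold higher by probe 2. Against the G2KO-labelled array, DKO MEFs were 4.78-fold and 4.96-fold lower. The G2KO-labelled array and the DKO-WT array differed by log2 ratios of only 0.06 and -0.02. Cdkn2a was therefore at similar levels on these last arrays, lower in DKO MEFs and lowest on the WT-labelled array.

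Cdkn2b, which encodes p15Ink4b, followed the same order on the WT-labelled array but not on the DKO array. Probe 1, at 88952276 to 88952335, had levels of 4.07 ± 0.407 on the G2KO-labelled array, 4.03 ± 0.403 on the DKO array and 6.31 ± 0.631 on its WT. Probe 2, at 88952720 to 88952779, had 1.001, 1.055 and 1.66 in the same order. On the WT-labelled array neither probe was well above background. The G2KO-labelled array and the DKO array overlapped within the error of the spot, and the DKO-WT array was above both.

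Cdkn2b was at least 569-fold higher by probe 1 and at least 139.8-fold higher by probe 2 on the G2KO-labelled array than on the WT-labelled array, log2 ratios of at least 9.15 and 7.13. With normexp background correction these log2 limits were 6.41 and 4.47. Between the WT arrays the limits were 881-fold and 231-fold. In DKO MEFs against their WT, both probes gave a log2 ratio of -0.65, or 1.57-fold lower by each, a size that 34.8% of all probes in that comparison reached or passed. The log2 ratio of Cdkn2a in DKO MEFs was thus larger in size than that of its neighbour, -2.19 against -0.65, by probes whose pairs disagreed by 0.14 and 0.004.

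**Figure D2:**
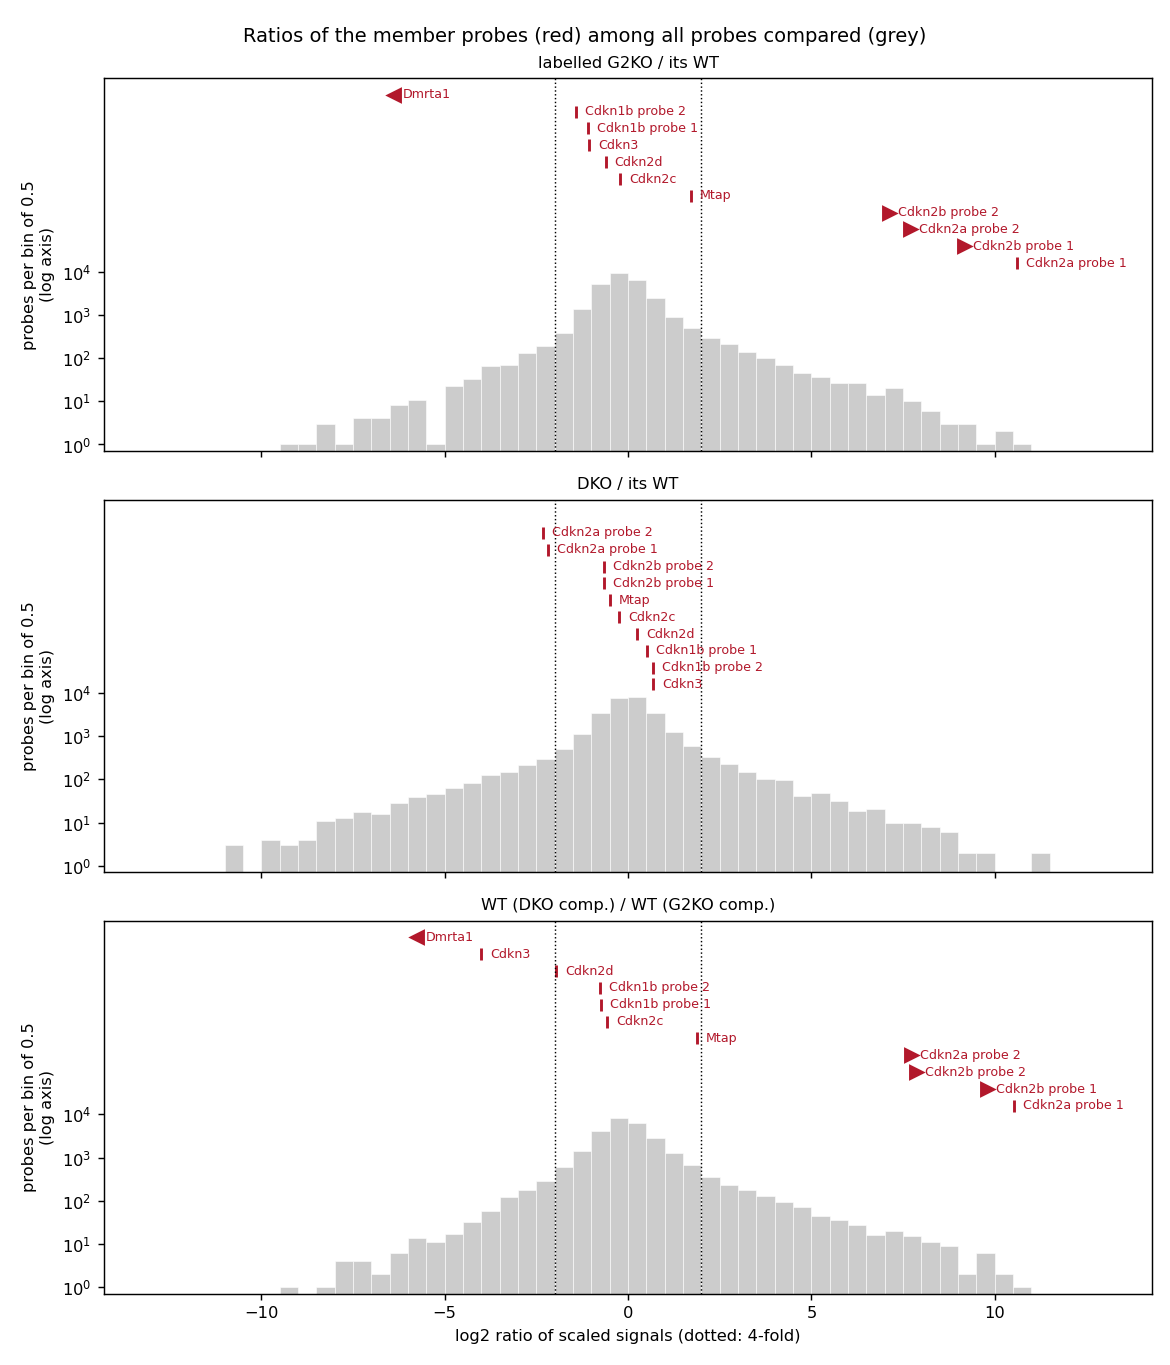
Log2 ratios of the member probes (red, with arrows for limits where 1 array was not well above background) above a histogram of all probes compared (grey, number of probes in bins of 0.5 on a log axis), with dotted lines at 4-fold. Cdkn2a and Cdkn2b lay at 7.13 or beyond in the G2KO-labelled pair and between the WT arrays, while in DKO MEFs no member lay beyond -2.33.

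Across the 8 genes, 2 were at least 4-fold higher on the G2KO-labelled array than on the WT-labelled array, Cdkn2a and Cdkn2b, where 3.58% of all 28273 probes were. Dmrta1 alone was at least 4-fold lower, where 1.92% of probes were. In DKO MEFs against their WT, 0 of the 7 genes with a ratio were at least 4-fold higher (3.93% of 28378 probes were) and Cdkn2a alone was at least 4-fold lower (3.99%). Between the WT arrays, Cdkn2a and Cdkn2b were at least 4-fold higher on that of the DKO comparison (4.57% of 27466 probes) and Cdkn3 and Dmrta1 at least 4-fold lower (2.65%). The genes were chosen on these contrasts, so nothing is read from their counts. The comparisons of the G2KO-labelled pair and between the WT arrays share the WT-labelled array, and the DKO comparison shares its WT array with the latter.

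The neighbours of the pair did not share its pattern as a block. Mtap, at 88826213 to 88826272 and 94.2 kb from Cdkn2a probe 1, was well above background everywhere, at 1.88 ± 0.187 on the G2KO-labelled array, 0.569 ± 0.0569 on the WT-labelled array, 1.46 ± 0.146 on the DKO array and 2.08 ± 0.208 on its WT. The WT-labelled array was again the lowest, but by 3.29-fold against the G2KO-labelled array (log2 ratio 1.72) and by 3.65-fold against the DKO-WT array (1.87), ratios that passed 4-fold without scaling of the arrays (2.21 and 2.11). In DKO MEFs the log2 ratio against their WT was -0.51. Mtap thus stayed well above background on the array where Cdkn2a was lowest.

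Dmrta1, on the far side at 89360601 to 89360660 and 440.2 kb from Cdkn2a, showed the opposite order. Its level was 0.555 ± 0.0555 on the WT-labelled array, and it was not well above background on any other array. Its level was at least 84.1-fold lower on the G2KO-labelled array (log2 ratio of -6.39 or lower) and at least 54.15-fold lower on the DKO-WT array. With normexp background correction these log2 limits were -3.95 and -3.60. Between DKO MEFs and their WT no ratio could be given, since the probe was dim on both arrays.

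Within 1 Mb of Cdkn2a on chromosome 4 there were 43 probes, 6 of them of Cdkn2a, Cdkn2b, Mtap and Dmrta1 and 37 of 31 other gene names. Most of the 37 lie between Ifnb1 and Ifne, the span of the interferon genes below Mtap, and many of these carry no interferon name. Of these 37, 29 had a ratio in the G2KO-labelled pair, with a median log2 ratio of -0.34 beside -0.16 over all probes. At least 4-fold higher was 1 of the 29, ENSMUSG00000073810, with a log2 ratio of at least 3.64 (3.58% of all probes were). At least 4-fold lower was 1, AK144962, with a log2 ratio of -2.67 (1.92%). In DKO MEFs 1 of 29 was higher, AK144962 with a log2 ratio of at least 2.59 (3.93% of all probes), and 0 were lower (3.99%). The median there was -0.16 beside 0.02 over all probes. Between the WT arrays 1 of 28 was lower, AK144962 again with -3.90 or lower (2.65% of all probes), and 0 were higher (4.57%), at a median of -0.25 beside -0.08. Gm12605, whose probe lies 56.7 kb from Cdkn2a and between it and Mtap, was well above background on all 4 arrays with log2 ratios of -0.69, -0.01 and -0.49. Interferon genes are near-identical copies of each other, so their probes may share targets.

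**Figure D3:**
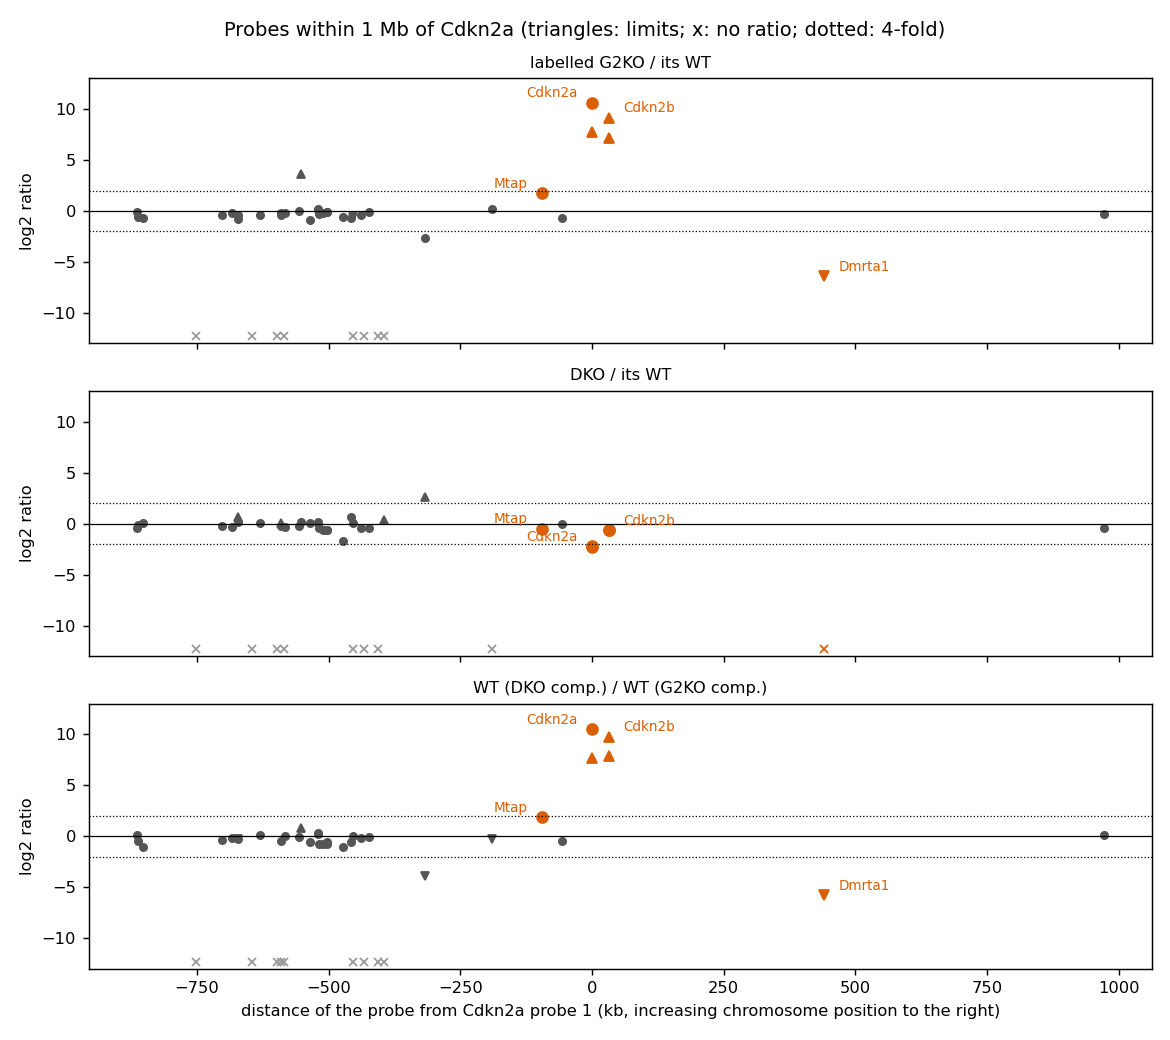
Log2 ratios (y axis) of all probes within 1 Mb of Cdkn2a probe 1 by distance in kb (x axis), in the 3 comparisons, with Cdkn2a, Cdkn2b, Mtap and Dmrta1 in orange, limits as triangles, probes without a ratio as crosses and dotted lines at 4-fold. The 4 Cdkn2a and Cdkn2b probes stood at 7.13 or higher in the first and last comparison, Mtap at 1.72 and 1.87, and 27 and 27 of the other probes with a ratio lay within 4-fold.

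The remaining INK4 genes did not follow Cdkn2a. Cdkn2c, which encodes p18Ink4c (chromosome 4, 109333508 to 109333567, outside the window above), had levels of 0.67 ± 0.067 on the G2KO-labelled array, 0.783 ± 0.0783 on the WT-labelled array, 0.448 ± 0.0448 on the DKO array and 0.529 ± 0.053 on its WT. The arrays of each pair overlapped within the error of the spot, and both arrays of the DKO comparison were below both of the other pair. Its log2 ratios were -0.23 for the G2KO-labelled array, which became 0.27 without scaling of the arrays, and -0.24 for DKO MEFs. Between the WT arrays it was -0.57.

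Cdkn2d, which encodes p19Ink4d (chromosome 9, 21092934 to 21092993), had its highest level on the array on which Cdkn2a was lowest. It stood at 7.02 ± 0.702 on the WT-labelled array, 4.58 ± 0.458 on the G2KO-labelled array, 2.15 ± 0.215 on the DKO array and 1.81 ± 0.181 on its WT. The arrays of the G2KO comparison were both above those of the DKO comparison. The log2 ratio was -0.62 in the G2KO-labelled pair, 0.25 in DKO MEFs and -1.96 between the WT arrays, just inside 4-fold, and -2.14 with the arrays scaled to the median.

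Cdkn1b, the gene for p27 (chromosome 6), had 2 probes, which agreed in order. Probe 1, at 134875424 to 134875483, gave 4.50 on the WT-labelled array, 3.87 on the DKO array, 2.72 on the DKO-WT array and 2.11 on the G2KO-labelled array. Probe 2, at 134873606 to 134873665, gave 0.163, 0.154, 0.0968 and 0.0615 in the same order. Its log2 ratios were -1.09 and -1.41 in the G2KO-labelled pair, 0.51 and 0.67 in DKO MEFs and -0.73 and -0.75 between the WT arrays, all within 4-fold. Of 9 genes that set the level of p27, among them its ubiquitin ligase subunit Skp2, none was past 4-fold in any of the 3 comparisons, with median log2 ratios of -0.07, -0.22 and -0.16.

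Cdkn3, the CDK-associated phosphatase (chromosome 14, 47386895 to 47386954), separated the pairs of arrays. Its level was 1.68 ± 0.168 on the WT-labelled array and 0.799 ± 0.0799 on the G2KO-labelled array, but 0.168 ± 0.0169 on the DKO array and 0.105 ± 0.0107 on its WT. Both arrays of the DKO comparison were thus below both arrays of the G2KO comparison, whatever the genotype in the label. The log2 ratio was -4.00 between the WT arrays, or 16.0-fold, against -1.07 in the G2KO-labelled pair and 0.68 in DKO MEFs. Against the DKO-WT array, the G2KO-labelled array was 7.63-fold higher (log2 ratio 2.93), although the same arrays agreed in Cdkn2a.

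A list of 22 proliferation genes was read beside it. Between the WT arrays, all 22 had a log2 ratio below 0 and 11 were at least 4-fold lower on the DKO-WT array, where 2.65% of all probes were, with a median of -1.72 against -0.08 over all probes. Under other scalings and normexp background correction 9 to 11 were. Those farthest from 0 were Bub1 (-3.83), Ccnb1 (-3.50), Mki67 (-3.44) and Plk1 (-3.33), genes of mitosis and cycling cells. In the G2KO-labelled pair 21 of 22 were below 0 but none was past 4-fold, with a median of -0.62 beside -0.16 over all probes, and without scaling of the arrays 14 of 22 were below 0. In DKO MEFs 12 were below 0, with a median of -0.17 and none past 4-fold. The order of the arrays in Cdkn3 was that of Ccnb1, at 7.94 on the WT-labelled array, 4.53 on the G2KO-labelled array, 1.098 on the DKO array and 0.704 on its WT. It was not that of the 12 genes below 0 in DKO MEFs, where Cdkn3 was at 0.68.

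**Figure D4:**
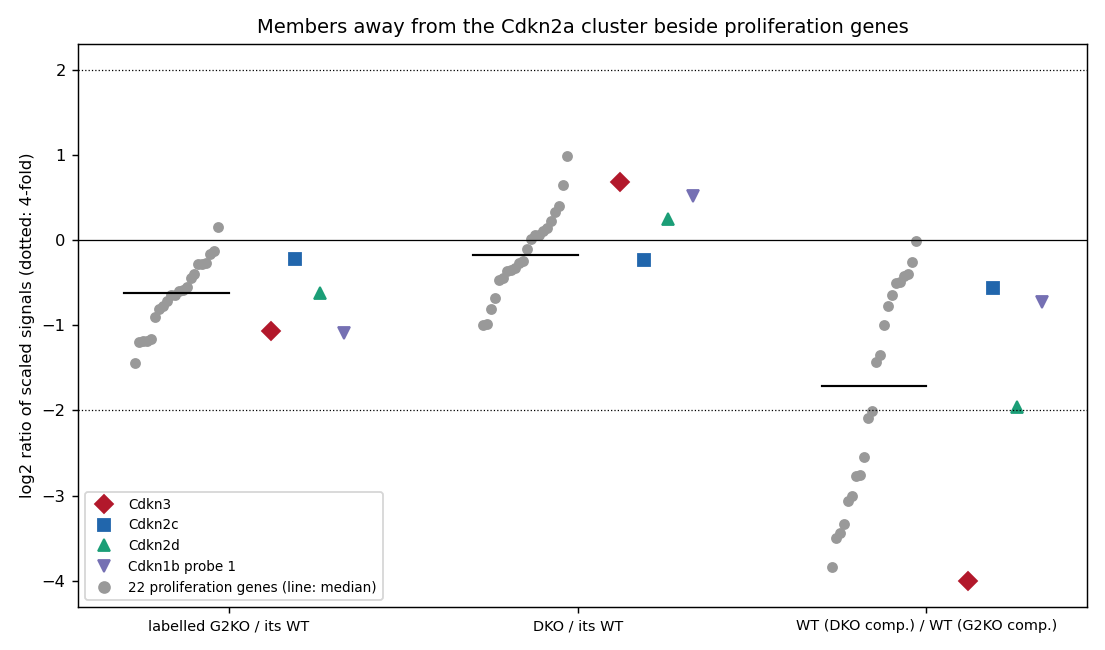
Log2 ratios in the 3 comparisons for Cdkn3, Cdkn2c, Cdkn2d and Cdkn1b probe 1 (coloured symbols) beside 22 proliferation genes (grey points in order of size, with the median as a line), with dotted lines at 4-fold. Cdkn3 lay at -4.00 between the WT arrays, where the proliferation genes had a median of -1.72, and at 0.68 in DKO MEFs, where their median was -0.17.

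The CIP/KIP genes outside the set were past 4-fold in all 3 comparisons and in opposite directions from each other. Of all probes, 3.58% to 4.57% were at least 4-fold higher and 1.92% to 3.99% lower in these comparisons. Cdkn1a, the p53-induced inhibitor p21, had levels of 0.644 on the G2KO-labelled array, 8.20 on the WT-labelled array, 5.00 on the DKO array and 0.572 on its WT. Its log2 ratios were -3.67 in the G2KO-labelled pair, 3.13 in DKO MEFs and -3.84 between the WT arrays, each opposite in sign to that of Cdkn2a. Cdkn1c, the imprinted inhibitor p57, stood at 0.792, 0.0283, 0.0145 and 0.482 in the same order of arrays, with log2 ratios of 4.81, -5.05 and 4.09, each of the sign of Cdkn2a.

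In the branch from Arf to p53, 7 genes were measured. Cdkn1a alone was past 4-fold, and lower, in the G2KO-labelled pair (1.92% of all probes were) and between the WT arrays (2.65%). In DKO MEFs Cdkn1a and Mdm2 (log2 ratio 2.41) were at least 4-fold higher, where 3.93% of all probes were. Mdm2, the ubiquitin ligase that Arf binds, was at 7.61 on the G2KO-labelled array, 19.4 on the WT-labelled array, 32.5 on the DKO array and 6.14 on its WT. The arrays with the highest Cdkn2a were thus those with the lowest Mdm2 and Cdkn1a, in 4 arrays. Trp53 itself stayed between 0.569 and 0.867, with log2 ratios of -0.06, 0.61 and -0.24. The list's medians of -0.07, -0.01 and -0.23 were close to those of all probes, -0.16, 0.02 and -0.08.

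Among 11 CDKs and cyclins that the inhibitors bind or counter, none was past 4-fold in the G2KO-labelled pair or in DKO MEFs. In the former, Ccnd1 (-1.97) passed 4-fold with the arrays scaled to the median (-2.01) and Cdk6 (1.80) without scaling (2.29). Between the WT arrays 4 were at least 4-fold lower on that of the DKO comparison: Ccnb1 (-3.50), Ccna2 (-3.06), Ccnd1 (-2.12) and Cdk1 (-2.003), where 2.65% of all probes were. The last 2 were within 4-fold without scaling (-1.88 and -1.76) and with quantile normalization (-1.89 and -1.93). Cdk6, at 1.95 between the WT arrays, passed 4-fold without scaling (2.19). Ccnb1, Ccna2 and Cdk1 were counted by the same probes among the 22 proliferation genes above. Cyclin D1, the partner that INK4 proteins displace from Cdk4, had levels of 37.7 on the WT-labelled array and 9.67, 10.4 and 8.69 on the G2KO-labelled array, the DKO array and its WT. Cdk4 itself ran from 24.1 to 45.0. Of 13 pocket proteins and E2F factors, all with a ratio, Rb1 alone was at least 4-fold lower on the G2KO-labelled array, where 1.92% of all probes were. Its log2 ratio was -2.02, but -1.53 without scaling, -1.995 with quantile normalization and -1.93 with normexp. None was past 4-fold in DKO MEFs (3.93% of all probes were higher and 3.99% lower). Rb1 (-2.35) and E2f2 (-2.27) were at least 4-fold lower on the DKO-WT array than on the WT-labelled array (2.65%).

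**Figure D5:**
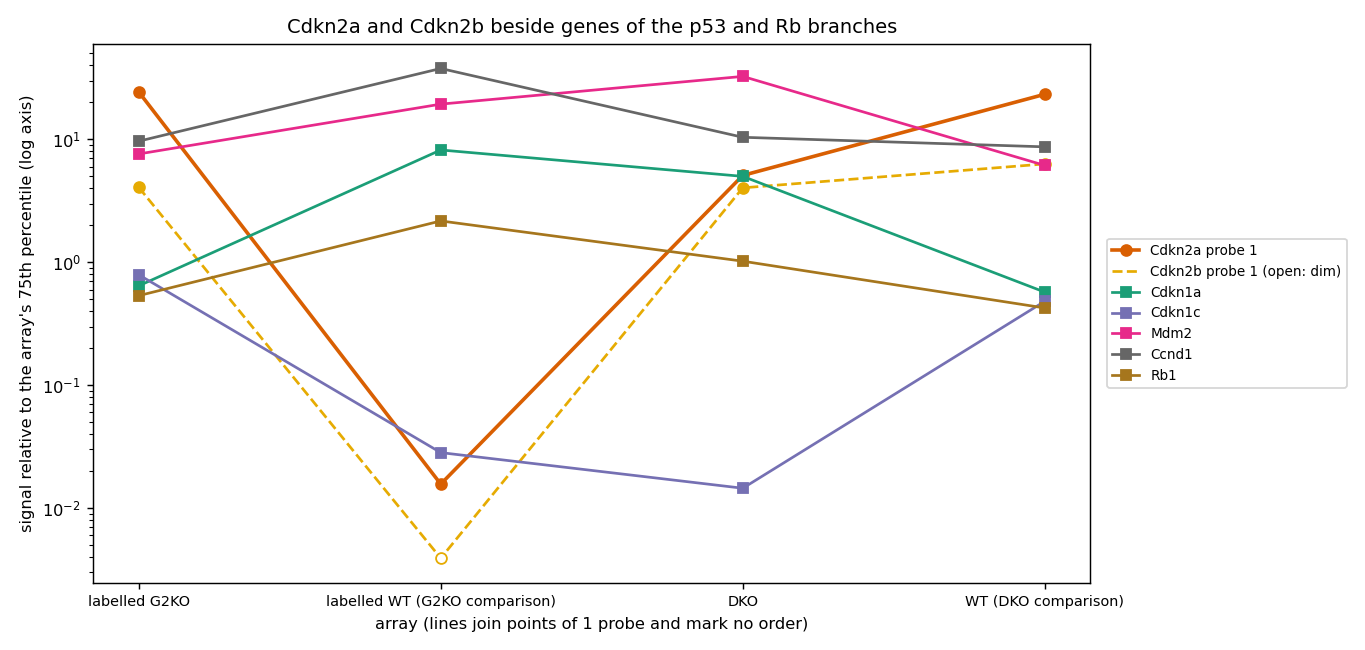
Levels of Cdkn2a, Cdkn2b, Cdkn1a, Cdkn1c, Mdm2, Ccnd1 and Rb1 on the 4 arrays, as signal over the array's 75th percentile on a log axis, 1 line per probe. Cdkn1a was at 8.20 and 5.00 on the WT-labelled array and the DKO array, on which Cdkn2a was at 0.0157 and 5.09, and at 0.644 and 0.572 on the others, on which Cdkn2a was at 24.3 and 23.3.

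Regulators of the locus were measured as a list of 26 genes. In the G2KO-labelled pair 2 of 24 with a ratio were at least 4-fold lower (1.92% of all probes were) and 0 higher (3.58%). The 2 were Lin28b, an RNA-binding protein of early development (at most -4.69), and Tbx3, a T-box repressor of Arf (-3.08). Both were also lower on the DKO-WT array than on the WT-labelled array, with log2 ratios of at most -4.05 and of -2.69. There 2 of 24 were at least 4-fold lower (2.65% of all probes) and 0 higher (4.57%). In DKO MEFs 1 of 25 was at least 4-fold higher (3.93% of all probes) and 1 lower (3.99%), near the shares of all probes. Tbx2, a related T-box repressor, had a log2 ratio of at least 3.58 and Jun, an AP-1 factor, had a log2 ratio of -2.54. Tbx2 was within 4-fold with normexp (1.88), as was Lin28b between the WT arrays (-1.997). Of the Polycomb genes of the list, which keep the locus silent, Bmi1, Cbx8, Ring1, Rnf2, Ezh2, Suz12 and Eed were within 4-fold in all 3 comparisons, and Cbx7 was dim on all 4 arrays and had no ratio. Their levels included Bmi1 at 3.23, 5.13, 2.27 and 3.27 and Ezh2 at 1.45, 2.70, 1.04 and 1.17 in the order of arrays used above. The list's medians were -0.10, -0.32 and -0.12.

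Around Mtap and Dmrta1, 11 further genes of methionine salvage and polyamine synthesis, all with a ratio, had medians of -0.08, -0.37 and -0.10. Il4i1 alone was past 4-fold, at -2.23 in the G2KO-labelled pair (1.92% of all probes were at least 4-fold lower) and -2.24 between the WT arrays (2.65%). It was within 4-fold with normexp (-1.72 and -1.61) and, in the G2KO-labelled pair, without scaling (-1.74). Of 8 other DMRT genes, Dmrta2, the closest relative of Dmrta1, was at 0.588 on the WT-labelled array and 0.0695 on the G2KO-labelled array (log2 ratio -3.08), 0.142 on the DKO-WT array (-2.05 against the WT-labelled array) and -4.10 or lower in DKO MEFs against their WT. With normexp it was within 4-fold in DKO MEFs (-1.67) and between the WT arrays (-1.82), and in the latter also without scaling (-1.81). Dmrtc1a and Dmrt2 were past 4-fold higher in DKO MEFs, with log2 ratios of 4.45 and at least 4.08. Of the 8, 7 had a ratio in the G2KO-labelled pair, 6 in DKO MEFs and 5 between the WT arrays. In that order 0, 2 and 0 were at least 4-fold higher, where 3.58%, 3.93% and 4.57% of all probes were. Each comparison had 1 at least 4-fold lower, where 1.92%, 3.99% and 2.65% of all probes were.

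The genes whose pattern over the 4 arrays was nearest to Cdkn2a probe 1 were ranked by the distance between centred log2 levels, among 30342 probes. Before centring, any level below the dimmest signal still well above background on its array was raised to that signal. On the WT-labelled array this held for Cdkn2b, Ebf3 and Eif2s3y, so their distances depend on it. Nearest was Ctsz, the lysosomal protease cathepsin Z, at a distance of 1.06, with levels of 16.2, 0.0168, 9.02 and 18.7 on the G2KO-labelled array, the WT-labelled array, the DKO array and its WT. Next came the neighbour Cdkn2b at 1.67, the collagen receptor Ddr2 at 1.86, the transcription factor Ebf3 at 2.01 and Eif2s3y at 2.29. Eif2s3y, a gene of chromosome Y, was at 1.996, 1.82 and 1.96 on the G2KO-labelled array, the DKO array and the DKO-WT array and dim on the WT-labelled array. The second Cdkn2b probe ranked 12, Mtap 898 at a distance of 7.23, and Cdkn2c, Cdkn2d, Cdkn1b, Cdkn3 and Dmrta1 between 22490 and 30324.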

How the data were processed

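Total RNA from 4 MEF preparations was hybridized to 4 single-color arrays of 43020 spots besides 1377 control spots each. The authors extracted the intensity of every spot with Agilent Feature Extraction (version 10.5.1.1 in the submitters' processing notes, 10.7.3.1 per the file headers), which subtracted background within the array and did not scale between arrays. The deposited value table holds the same processed intensity (largest log2 difference 0) and has no centring, so it served as an alternative without scaling.

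From these values, control spots and spots flagged as outliers (107 to 140 per array) were left out, and each log2 intensity was scaled by the array's 75th percentile, at signals between 1586.21 and 2233.61. Repeat spots were averaged. The 399 probes with several spots had a median SD between spots of 0.0752 to 0.1217 on the log2 scale, which covers the spot and not the culture. Comparisons used probes that at least 1 array measured well above background. A dim partner was replaced by the dimmest signal still well above background there (11.362 to 19.233), unless the probe itself was brighter, and the ratio is then a limit ("at least"). Probes dim on both arrays have no ratio. Neither have probes dim on 1 array whose limit fell on the other side of 1. The error of a level is the software's error of the spot. Where a list gene had more than 1 probe, the brightest by mean log2 signal stood for it.

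Each knockout array was compared with the WT of its own pair, and the WT arrays were compared with each other. No test was run, since each knockout has 1 array, only the WT arrays could lend an error, and the members were chosen on these arrays. Differences of at least 4-fold were counted. The calculation was tested on simulated data. The members, the lists and the rule for named genes (all members, Ccng1, Ccng2, probes within 1 Mb of Cdkn2a, the 5 genes nearest in pattern, and at most 4 genes per list past 4-fold) were chosen with earlier results of these data known. Other list and marker genes named in the text, among them Trp53, Cdk4, Bmi1, Ezh2, Skp2, Nes and Sox2, fell outside that rule and were chosen after their values were seen. Alternatives were other scalings, quantile normalization, normexp background correction (limma 3.58.1, R 4.3.3, offset 50), the deposited table, outlier spots, filters, floors, thresholds and the other WT array, and, chosen after seeing the data, exchanged labels of the G2KO pair. Gene names and mm9 positions are those of the files, and the promoters are those of a RefSeq table of GRCm38.p6. Ratios were computed in Python 3.11.15 (numpy 2.4.6, pandas 2.3.3). Dye-swapped arrays and G1KO MEFs were not analysed here.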

Additional observations from a re-analysis of the deposited data

Results flagged for a closer look

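By the labels, Cdkn2a differed in opposite directions in the knockout comparisons. Probe 1 had a log2 ratio of 10.60 for the G2KO-labelled array against its WT and of -2.19 for DKO MEFs against theirs. Probe 2 had at least 7.70 and -2.33. With 1 array per group the difference between the comparisons was not tested, and the first direction rests on the labels of the G2KO comparison. With those labels exchanged, the first values would be -10.60 and -7.70 or lower, and Cdkn2a would be lower in both knockouts. The WT-labelled array, on which Cdkn2a was lowest, also held the highest summed level of neural progenitor markers (31.2) and no signal well above background of the Y-linked gene Eif2s3y, and the DKO array the highest of mesothelial markers (149). Their part in the result was not tested.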

How the results depend on the processing

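Under other scalings, quantile normalization, normexp, the deposited table and outlier spots kept, 182 of 192 member log2 ratios moved by less than 1.5-fold. Of those past 4-fold, 0 turned sign. Much of this was fixed by construction. Another scaling moves all ratios of a comparison alike, and the deposited table repeats the values without scaling. Keeping outlier spots changed no member ratio. With normexp 10 of 32 moved, and Cdkn2a probe 1 had a log2 ratio of 8.65 in the G2KO-labelled pair. Without scaling, the median log2 ratio of all probes moved from -0.16 to 0.34 in the G2KO-labelled pair and from -0.08 to 0.17 between the WT arrays, and 81.0% in place of 65.1% of the probes past 4-fold in the former were higher. Against the other pair's WT array, Cdkn2a became 8.34 and at least 5.39 in DKO MEFs, and in the G2KO-labelled pair its probe 2 became -0.024 and the Cdkn2b probes -0.63 and -0.73. Against the mean of both WT arrays, in which a dim WT signal stood at its floor, Cdkn2a in DKO MEFs became 3.08 and 1.53. Member genes past 4-fold numbered 3 for the G2KO-labelled pair, 1 for DKO MEFs and 4 between the WT arrays. They became 1 and 2 in the first and last with both arrays well above background, 6 in the first at 2-fold, 0 in DKO MEFs at 10-fold, 1 and 4 against the other pair's WT array, and 3 in DKO MEFs when the WT arrays were averaged. Probes past 4-fold numbered 1555, 2246 and 1981 in that order. They became 712, 1191 and 1019 with normexp, 913, 1375 and 1289 with both arrays well above background, 4769, 5769 and 5954 at 2-fold, and 587, 953 and 720 at 10-fold. For the G2KO-labelled array they became 581 against the other pair's WT array and 639 against the mean of both. With the labels of the G2KO pair exchanged, an alternative chosen after seeing the data, Cdkn2a became -10.60 and at most -7.70, Cdkn2b at most -9.15 and -7.13 and Dmrta1 at least 6.39. Cdkn2a probe 1 then became, between the WT arrays, -0.064, with 1 member gene and 581 probes past 4-fold. Scaling to the median added Cdkn2d between the WT arrays (5 member genes), and no scaling added Mtap there (5) and in the G2KO-labelled pair (4). Taking the median over a gene's probes left all 45 list counts within 1.5 times, scaling to the median 44, quantile normalization 43, no scaling 40 and normexp 37. The cause of these shifts was not tested beyond what each setting changes by construction. Leaving out a replicate was not possible with 1 array per group. No paired analysis was possible because each group has 1 array. Signals near background limit Cdkn2a probe 2, Cdkn2b and Dmrta1 to bounds, whose true ratios may be larger. The bounds also rest on the background method. With normexp those of the G2KO-labelled pair were smaller in size: 5.24 for Cdkn2a probe 2, 6.41 and 4.47 for Cdkn2b and -3.95 for Dmrta1. Cdkn2a probe 1 had a signal of 24.9 on the WT-labelled array, near the dimmest still well above background there (11.362).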
